A study of Mus musculus with 6 samples.

Results

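The clustered protocadherin genes are 57 protein-coding genes on mouse chromosome 18, taken here from the RefSeq gene table as those whose symbol starts with Pcdha, Pcdhb or Pcdhg, out of 20074 protein-coding genes with a measured window. They form 3 neighbouring arrays: 14 alpha genes (positions 36930285 to 37188897), 22 beta genes (37264998 to 37521419) and 21 gamma genes (37661775 to 37841873), in the coordinates of the mm10 build. Methylated cytosines were mapped by bisulfite sequencing of the whole genome in sorted endothelial cells of the mouse lung. The study set 3 samples labelled ko against 3 labelled wt (KO and WT below), in a series on Dnmt3a, a de novo DNA methyltransferase. The labels give only genotype, tissue and cell type. For the deleted allele, any recombinase driver, and the age and strain of the mice, the sources used here give nothing. Since no label ties each sample to its own animal, p-values cover only the spread among them, which may be technical.

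Clustered protocadherins are cell adhesion proteins best known from neurons, where each cell uses its own small choice of them and contacts between matching sets let a neuron tell its own branches from those of others. Each variable exon has its own promoter and encodes the extracellular part of a different protein. Variable exons of the alpha and gamma arrays are spliced to constant exons at the far end of their array, which encode a shared cytoplasmic tail, whereas each beta gene is complete by itself. The C-type genes (Pcdhac1, Pcdhac2, Pcdhgc3, Pcdhgc4 and Pcdhgc5) lie nearest the constant exons and are more divergent from the other members of their arrays. In neurons the de novo methyltransferase Dnmt3b and the insulator protein CTCF are known to take part in promoter choice.

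Each sample had 1 methylation level, in percent, for each measured 1 kb tile, and 566 of the 698 tiles that meet the 3 arrays were measured. Every tile was counted once. The gene table gives no exons, so the variable exon of a gene was taken as the first 2500 bp of its span on the side where genes of an array differ. Genes of the alpha array, and those of the gamma array, end at nearly the same position. Tiles that met such a window, by any overlap, were counted as variable exon, and tiles between the first and the last window as between. The rest of the alpha and gamma spans was counted as the constant part, which holds the constant exons and the introns before them. A tile or window was called at an adjusted p under 0.05 (limma, Benjamini-Hochberg adjustment over all 1954255 tiles or all 20074 windows) and a difference of at least 10 points. Differences are KO minus WT, errors are SD with n = 3 per group unless an SE is named, and the depth is unknown because the table holds no read counts. In bulk DNA a middle level does not tell whether some cells or alleles are fully methylated and others not.

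Over all tiles of the genome the mean level was 63.7% ± 0.140 in KO and 69.0% ± 0.451 in WT, and the median tile differed by -4.05 points. At the RefSeq start of endothelial marker genes with a known strand (Kdr, Tek, Tie1 and Egfl7), WT levels were 6.31 to 18.3%. They were 64.8 to 73.5% at the leukocyte genes Ptprc, Cd3e and Itgam. Epithelial genes were at 1.32% (Nkx2-1) and 33.4% (Epcam), the mesenchymal gene Pdgfra at 1.39%, and the neural genes Rbfox3 and Gfap at 31.9 and 64.2%. A low level at a gene start thus does not identify the cell type.

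The 3 arrays, which lie side by side, differed in what they lost. Gamma variable exons were lower in KO by 14.2 points, beta variable exons differed by -2.66 points and alpha variable exons by 1.29 points. Called lower in KO were 76 of the 173 gamma tiles (43.9%), 3 of the 204 beta tiles (1.47%) and 9 of the 189 alpha tiles (4.76%), while 16.2% of all tiles of the genome, 17.1% of those on chromosome 18 and 17.8% of those with a mean level of 40 to 65% were called lower. Called higher were 2 alpha tiles and no beta or gamma tile (limma), against 0.0796% of all tiles, 0.0691% on chromosome 18 and 0.108% of those at 40 to 65%. At an unadjusted p under 0.05, 2 beta tiles and 1 gamma tile were higher, and with a replicate block or without a variance trend limma called 1 beta tile higher. The small counts changed when single samples were left out. Leaving out a sample also lowered the share of all tiles called lower, from 16.2% to between 12.5 and 14.8%. Without KO replicate 1 or without WT replicate 3, 5 alpha tiles were called lower. Without KO replicate 2 or without WT replicate 1, 1 beta tile was. The alpha gains fell to 0 without WT replicate 1 and to 1 without KO replicate 1, KO replicate 2, WT replicate 2 or WT replicate 3. Without WT replicate 2 or WT replicate 3, 1 beta tile was called higher.

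**Figure D1:**
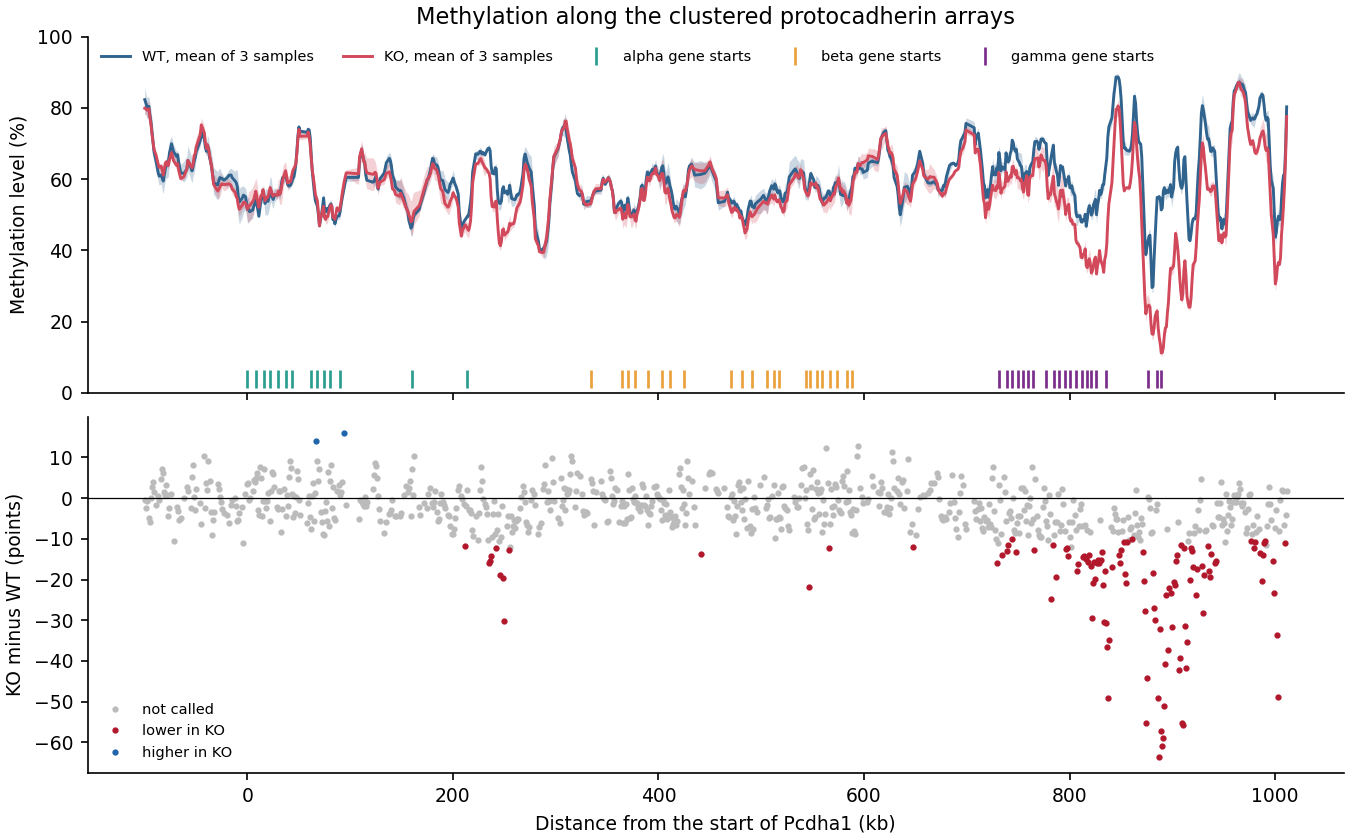
Methylation along the alpha, beta and gamma arrays and 100 kb on either side, with the distance from the start of Pcdha1 in kb on the x axis. Above, the level in percent as a running mean over 11 measured tiles (lines, mean of 3 samples; shading, their range; ticks, gene starts). Below, the KO minus WT difference of each 1 kb tile in points, coloured by call: both lines run together over the alpha variable exons and the beta array and separate in the gamma array, where the largest tile difference is -63.5 points.

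Gamma variable exons stood at 38.3, 38.4 and 40.8% in KO replicates 1 to 3 and at 53.0, 53.3 and 53.6% in WT. The groups were apart by far more than their spread, and the exact permutation test over samples gave p = 0.10, the smallest that 3 against 3 samples allow (two-sided). In 46 of the 74 tiles of these exons every KO sample lay below every WT sample, against 31.6% of all tiles (1.54% the other way). Between the gamma variable exons levels were 59.2, 59.1 and 62.2% in KO and 70.4, 69.6 and 70.2% in WT, a difference of -9.88 points (exact permutation p = 0.10, n = 3 per group). The gamma constant part had the largest difference of the parts, -26.7 points, with 32.7, 31.8 and 29.7% in KO and 59.3, 58.8 and 56.1% in WT (exact permutation p = 0.10, n = 3 per group). Of its 18 tiles, 16 were called lower, against 16.2% of all tiles. The difference was -21.8 and -23.1 points in the constant part after centring each sample on its median and after scaling samples to one mean level, -9.28 and -10.5 in the variable exons, and -4.99 and -4.63 between them. On the means, variable exons of the gamma array differed more than the tiles between them, by -4.29 points as the difference of the differences (exact permutation p = 0.10, n = 3 per group, adjusted over 6 comparisons p = 0.15). The median tile differences were closer, at -9.31 points in the variable exons and -8.05 between them. The contrast of means thus rests in part on a few tiles with very large losses, such as those of Pcdhgc4 and Pcdhgc5.

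Alpha variable exons stood at 51.6, 52.7 and 54.0% in KO and 52.4, 49.98 and 52.0% in WT, and the groups overlapped (exact permutation p = 0.40, n = 3 per group). Tiles between them were at 58.4% ± 1.43 in KO and 59.4% ± 0.502 in WT, with a difference of -1.01 points that turned to 3.88 after centring and to 3.75 after scaling. In the constant part of the alpha array the groups were apart, with 55.4, 55.5 and 54.3% in KO and 62.1, 63.4 and 62.4% in WT (exact permutation p = 0.10, n = 3 per group). The difference there was -7.62 points, and 8 of its 37 tiles (21.6%) were called lower, not far above the 16.2% of all tiles. Those 8 made up all but 1 of the alpha tiles called lower. After centring the difference was -2.73 points with 2 tiles called lower, and after scaling -2.87 points with 3. On these scales 6.64% and 6.58% of all tiles were called lower. Alpha variable exons were at 6.18 and 5.51 points on these scales.

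Beta variable exons were at 50.8, 52.4 and 53.6% in KO and at 54.6, 53.5 and 56.6% in WT, so the highest KO sample lay just above the lowest WT sample (exact permutation p = 0.20, n = 3 per group). Their difference of -2.66 points was positive after centring (2.23) and after scaling (1.67). Between the beta exons the difference was -0.213 points, with 56.9% ± 0.342 in KO and 57.1% ± 0.290 in WT, and it was 4.68 and 4.40 points after centring and scaling. Centring and scaling move the median tile of the genome from -4.05 to 0.843 and 1.42 points, so these parts lay near or above the genome's median on every scale. Gamma differed from alpha by -15.5 points, gamma from beta by -11.5 and beta from alpha by -3.95 as differences of the differences over variable exons (exact permutation p = 0.10 each, n = 3 per group, adjusted p = 0.15 over 6 comparisons).

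**Figure D2:**
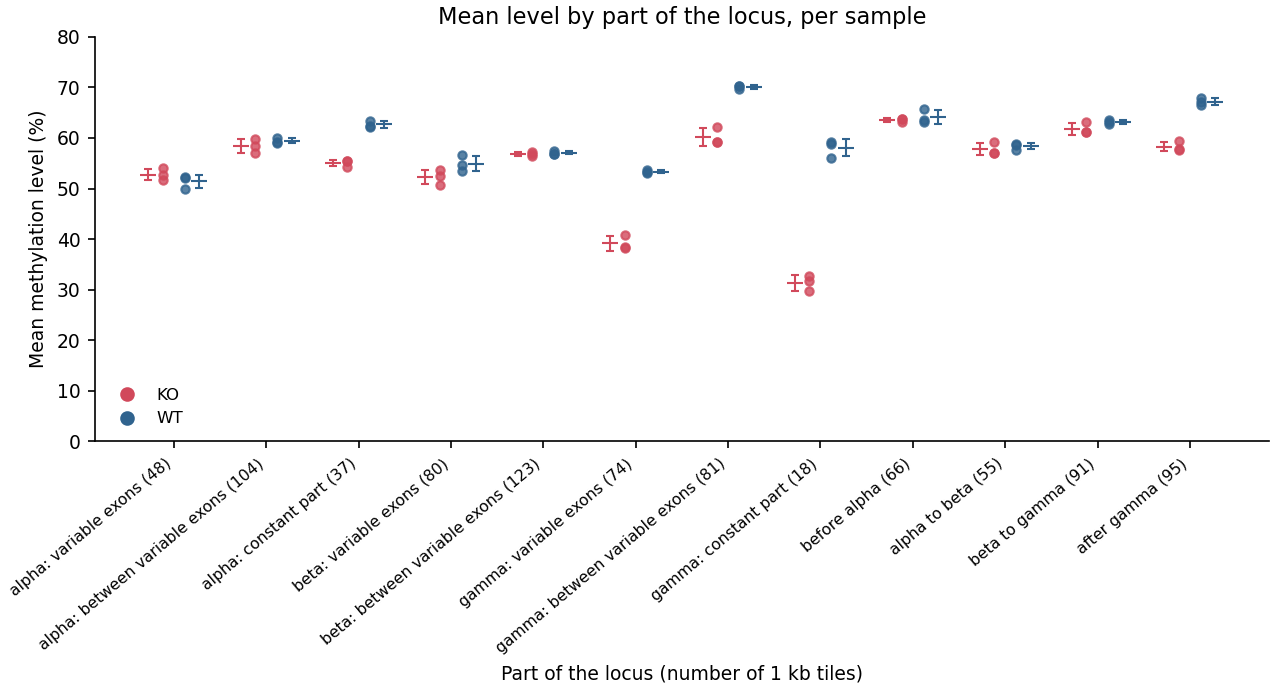
Mean methylation level (%) of each part of the locus in each sample, KO in red and WT in blue, with the number of 1 kb tiles in brackets; circles are samples, and the bar beside them is the mean with its SD (n = 3). The groups are apart in the alpha constant part, in the 3 gamma parts and in the 100 kb after the gamma genes.

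Gene by gene, 10 of the 21 gamma windows were called lower and none of the 14 alpha or 22 beta windows (limma). Over all protein-coding genes 19.3% of windows were called lower, and 23.1% of windows with a mean level of 40 to 65% over all samples (called higher, 0.0598% and 0.126%). At an unadjusted p under 0.05, no alpha window was lower and 1 was higher, and 3 beta windows were lower and none higher. The median difference was 0.66 points over alpha windows, -3.06 over beta windows and -8.51 over gamma windows, against -4.80 over all windows. The groups did not overlap, with KO below, in 19 of 21 gamma, 7 of 22 beta and 1 of 14 alpha windows, and in 53.3% of windows genome-wide. They did not overlap with KO above in 2 alpha windows, and in 0.842% genome-wide.

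**Figure D3:**
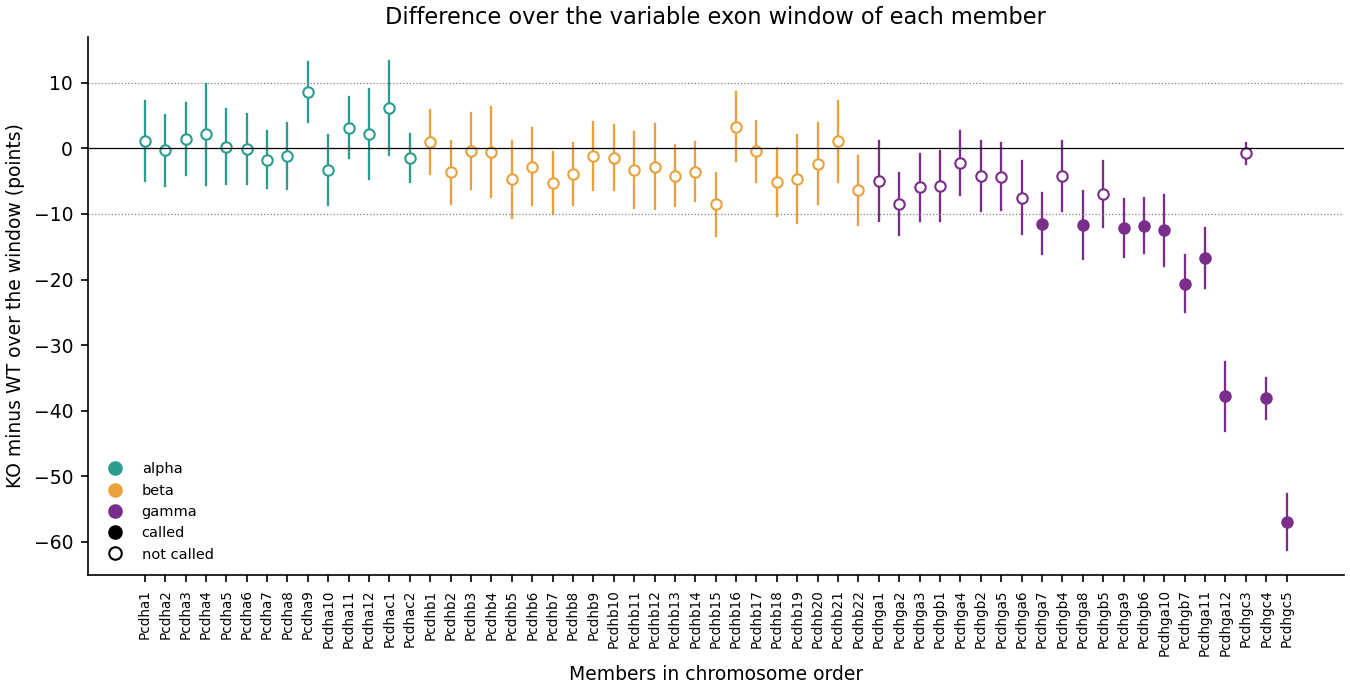
KO minus WT difference in points over the variable exon window of each of the 57 genes, in chromosome order, with the 95% confidence interval of limma; filled circles were called, open circles were not, and dotted lines mark 10 points. Alpha and beta windows lie between -8.52 and 8.62 points, and gamma windows fall away towards the far end of the array, down to -57.0 for Pcdhgc5, with Pcdhgc3 at -0.79.

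Within the gamma array the called windows lay in the later members. The first 7 members, Pcdhga1 to Pcdhga5, differed by -8.51 to -2.26 points and none was called. Of the next 7, Pcdhga6 to Pcdhgb6, 4 were called, with differences from -12.2 to -4.17. Of the last 7, Pcdhga10 to Pcdhgc5, 6 were called, and the differences of these 7 ran from -57.0 to -0.79. The share called lower over all windows was 19.3%. The mean over members of these groups was 53.9% ± 0.943, 44.3% ± 1.39 and 19.3% ± 1.86 in KO and 59.1% ± 1.15, 53.7% ± 0.395 and 45.5% ± 0.872 in WT. These WT means thus declined along the array too, and the KO means declined further. The last WT mean takes in Pcdhgc3, at 1.49%, and Pcdhgc5, at 68.6% the highest WT window of the array, so its fall rests largely on Pcdhgc3. Over the 18 members that are not C-type, the rank correlation of order with the WT level was -0.67 and with the KO level -0.88. Across the 21 members the rank correlation of order with the difference was -0.63, with the WT level -0.51 and with the KO level -0.92; the members are not independent points, since levels of adjacent tiles at this locus deviated together (r of 0.43 to 0.46 in each sample). This split by order was made after the values were seen and was not tested. In the alpha and beta arrays the rank correlation of order with the difference was 0.11 (14 members) and -0.18 (22 members).

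A-type and B-type gamma genes are interspersed along the array and differ in the sequence of their variable exons. Of 12 A-type windows 6 were called lower, with a median difference of -9.996 points. Of 6 B-type windows 2 were, with a median of -6.35. Over all protein-coding genes 19.3% of windows were called lower, and 23.1% of those with a mean level of 40 to 65%. The types were not compared at like positions in the array. The called B-type windows, Pcdhgb6 and Pcdhgb7, lie next to the called A-type windows Pcdhga9, Pcdhga10 and Pcdhga11. Pcdhga4, the member with the smallest difference after Pcdhgc3, stood at 55.0, 54.2 and 55.4% in KO and 56.1, 55.4 and 60.03% in WT (difference -2.26 points, adjusted p = 0.422).

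The C-type genes at the far end held both the largest differences and the smallest. The window of Pcdhgc5 was at 10.9, 10.02 and 13.999% in KO and at 66.6, 70.5 and 68.9% in WT, a difference of -57.0 points (SE 1.91, adjusted p = 1.25e-07). Every tile of it was called, with tile differences of -57.2, -60.9, -59.0 and -51.0 points. Pcdhgc4 was at 7.74, 7.70 and 8.81% in KO and 47.5, 44.3 and 46.6% in WT, which is -38.1 points (SE 1.41, adjusted p = 1.46e-07). Its start tile was nearly unmethylated in both groups, at 0.486% ± 0.263 and 1.98% ± 0.383. The next tile was at 4.01% ± 0.657 in KO and 53.2% ± 2.22 in WT. The one after that (37817001 to 37818000) was at 19.8% ± 1.79 and 83.3% ± 3.73, the largest loss of any tile in the arrays.

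Pcdhgc3, between Pcdhga12 and Pcdhgc4, was unmethylated in both groups. Its window was at 0.600, 0.556 and 0.960% in KO and 1.31, 1.97 and 1.20% in WT (difference -0.79 points, adjusted p = 0.391), so from the WT mean of 1.49% it could lose no more than that. The tile before its start tile (37805001 to 37806000) differed by -44.1 points and the one before that by -55.2, both called lower. The tile after its window (37809001 to 37810000) was not called, with 9.13, 14.1 and 23.9% in KO and 23.6, 33.4 and 16.03% in WT. A window of 1000 bp on either side of the start, which takes in that first neighbour, differed by -14.7 points and was called.

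Pcdhga12, the A-type gene nearest the C-type genes, stood at 16.8, 15.2 and 20.7% in KO and 51.0, 59.0 and 56.1% in WT, a difference of -37.8 points (SE 2.34, adjusted p = 1.70e-06). Pcdhgb7, the B-type gene nearest the constant part, was at 28.5, 28.7 and 29.8% in KO and 48.8, 53.1 and 47.1% in WT, which is -20.6 points (SE 1.95, adjusted p = 2.66e-05). All of the tiles in both windows were called lower. The pseudogene Pcdhgb8, which lies between Pcdhga11 and Pcdhga12 and is not a member, was at 38.1% ± 1.06 and 58.8% ± 0.333 over its first 2500 bp. Other called windows were those of Pcdhga7, Pcdhga8, Pcdhga9, Pcdhgb6, Pcdhga10 and Pcdhga11, at -16.7 to -11.5 points. After centring or scaling, 5 windows were still called, and all 5 were among the 10: Pcdhgb7, Pcdhga11, Pcdhga12, Pcdhgc4 and Pcdhgc5.

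**Figure D4:**
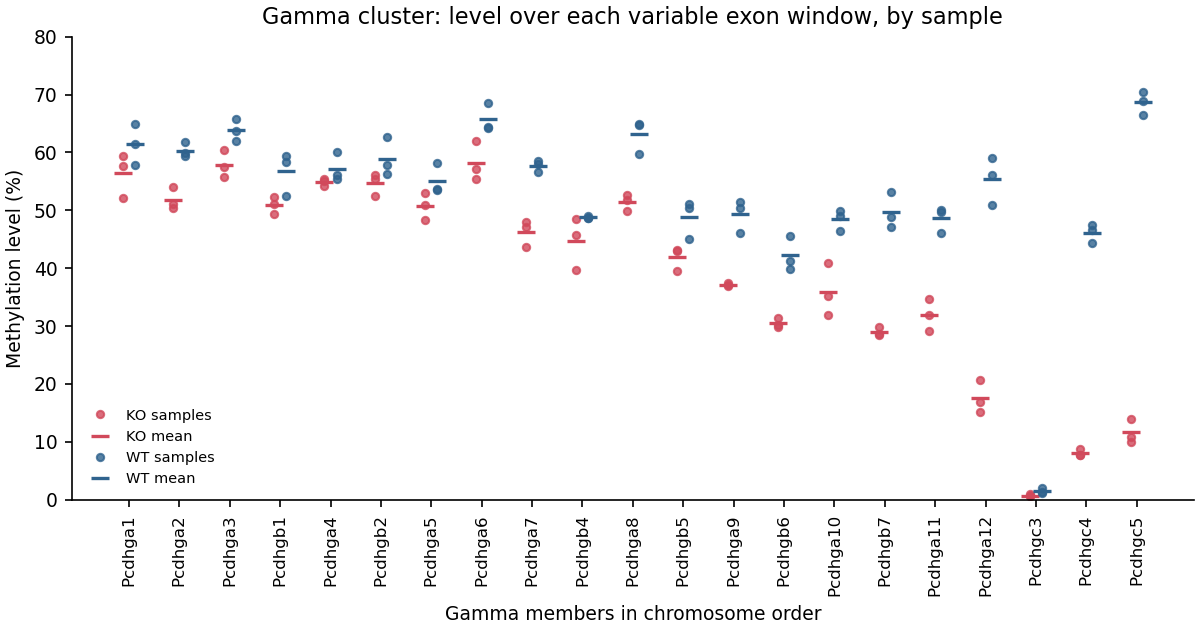
Methylation level (%) over the variable exon window of each gamma gene, in chromosome order, with 3 KO samples (red) and 3 WT samples (blue); dashes are group means. All 10 called windows lie from Pcdhga7 on, where Pcdhgb4 (-4.17 points) and Pcdhgb5 (-6.93) differ less than some earlier members, Pcdhgc3 is near 0 in all 6 samples, and Pcdhgc5 has the widest separation, from 11.6 to 68.6%.

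The called tiles of the gamma array lay in stretches. Joined over gaps of at most 1 kb, 22 called tiles formed a 26.0 kb stretch (37743001 to 37769000) that met the windows of Pcdhgb6, Pcdhga10, Pcdhgb7, Pcdhga11 and Pcdhga12, and its called tiles averaged 32.1% ± 1.58 in KO and 53.6% ± 1.605 in WT. A 29.0 kb stretch of 26 called tiles (37816001 to 37845000) ran from inside the window of Pcdhgc4 through Pcdhgc5 and the constant part and past the end of the gamma genes, at 27.5% ± 0.570 and 64.0% ± 1.07. Between Pcdhga12 and Pcdhgc3, where 24 of 36 tiles were above 80% in WT, shorter runs were called, the largest of 5 tiles directly before Pcdhgc3 (31.3% ± 2.35 in KO, 63.4% ± 1.52 in WT). The largest gain of the array, between exons near Pcdhga5 (37693001 to 37694000), was not called, at 76.8% ± 3.97 and 69.2% ± 3.10 (adjusted p = 0.134).

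**Figure D5:**
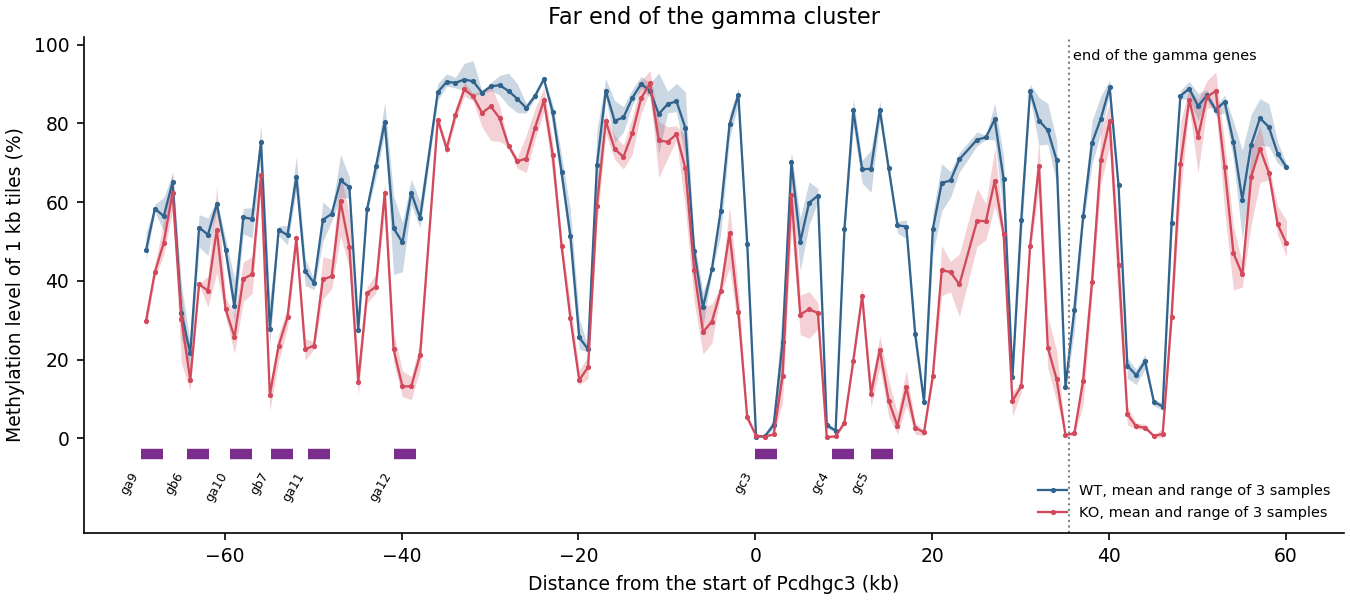
Methylation level (%) of 1 kb tiles at the far end of the gamma array, against distance from the start of Pcdhgc3 in kb; lines join the group means of 3 samples, shading is their range, purple bars are variable exon windows (names without Pcdh) and the dotted line is the end of the gamma genes. Both groups are near 0 at Pcdhgc3 and at the start of Pcdhgc4, and the KO mean lies below the WT mean beside them and through Pcdhgc5 and the constant part.

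Unmethylated tiles, with a mean level under 10% over the samples, numbered 7 in the gamma array, 3 in the alpha array and 0 in the beta array. The mean takes in both groups, so a loss in KO can itself bring a tile under 10%. Of the gamma tiles 1 to 3 kb from an unmethylated tile, 18 of 20 were called lower, and they stood at 27.5% ± 0.834 in KO and 61.7% ± 1.69 in WT. Of the 128 gamma tiles at 11 kb or more from one, 45 were called, with 55.0% ± 1.51 and 64.2% ± 0.486. The alpha array had 10 tiles at 1 to 3 kb, of which 4 were called (47.9% ± 0.635 and 59.0% ± 0.588), and 153 at 11 kb or more, of which 3 were. Beta tiles were all at 11 kb or more. At 4 to 10 kb, 12 of 18 gamma and 2 of 23 alpha tiles were called lower. Among tiles outside the arrays, in the gaps and the 100 kb on either side, 12 of 34 were called lower at 1 to 3 kb. There, 6 of 49 were at 4 to 10 kb and 14 of 214 at 11 kb or more. Over all tiles of the genome, at any distance, 16.2% were called lower, and a share at like distances is not given here. The limits of these distances were set after the values were seen, and the part of distance in the contrast between arrays was not tested.

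On the mean of each array the tile that holds a gene start was less methylated than the later tiles of its window. The start tile was below the mean of the later tiles of its own window in WT for 14 of 14 alpha, 21 of 22 beta and 21 of 21 gamma genes, and in KO for 14, 20 and 20 of them; Pcdhb17 (both groups), Pcdhb13 (KO) and Pcdhga12 (KO) did not. Start tiles of the gamma genes were at 22.6% ± 1.18 in KO and 33.4% ± 1.57 in WT, and later tiles at 45.7% ± 1.64 and 61.2% ± 0.371. Alpha start tiles were at 35.7% ± 2.77 and 34.3% ± 1.69, and their later tiles at 59.8% ± 0.517 and 58.5% ± 1.34. Beta start tiles were at 40.9% ± 1.67 and 42.2% ± 1.56, and later tiles at 56.5% ± 1.33 and 59.7% ± 1.53. In gamma windows 6 of 21 start tiles and 28 of 53 later tiles were called lower, against 16.2% of all tiles. These counts do not compare the 2 kinds of tile evenly, since start tiles had less to lose. The start tiles of Pcdhgc3 and Pcdhgc4, at 0.457 and 1.98% in WT, could not lose 10 points. On the means, start tiles differed by -10.7 points and later tiles by -15.5.

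The alpha members varied more among themselves than between the groups. Their WT means ran from 37.9% for Pcdhac2 to 64.2% for Pcdha6, and the 95% intervals of their differences lay between -8.58 and 13.3 points, so losses larger than 8.58 points fell outside all 14 intervals. Pcdhac2, the C-type gene beside the constant part, had a start tile at 0.736% ± 0.561 in KO and 2.73% ± 3.11 in WT and a second tile at 8.55% ± 2.10 and 6.59% ± 0.740. The last tiles of the window were at 66.0 and 70.7% in KO and 68.8 and 73.7% in WT, and none of the window's tiles was called. The tile before its start tile (37142001 to 37143000) was called lower, at 23.1% ± 0.892 and 34.9% ± 5.92. The most negative alpha windows were those of Pcdha10 (-3.27 points), Pcdha7 (-1.71), Pcdhac2 (-1.44) and Pcdha8 (-1.11), all with adjusted p of 0.290 or more, and each of these 4 turned positive after centring and after scaling.

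Pcdha9 went the other way. Its window was at 55.1, 55.4 and 55.5% in KO and at 46.0, 44.9 and 49.3% in WT, a difference of 8.62 points (SE 2.05, adjusted p = 0.00743) that missed the minimum of 10 points and passed it after centring (13.5) and scaling (12.8). The tile with its start (36997001 to 36998000) was called higher, at 37.0, 47.7 and 40.01% in KO and 22.9, 22.9 and 36.6% in WT. The other tile called higher lay between exons, nearest the start of Pcdha12 (37024001 to 37025000, 65.6% ± 4.90 and 49.6% ± 13.7). Pcdhac1 stood at 44.9, 56.6 and 46.0% in KO and 38.8, 45.2 and 45.2% in WT, with overlapping groups (6.12 points, adjusted p = 0.150); after centring it was called higher at 11.01 points. The largest loss of the array was in its constant part (37180001 to 37181000), at 31.4% ± 7.10 in KO and 61.7% ± 6.22 in WT.

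The beta genes were the most even of the 3 arrays. Their WT means ran from 47.5 to 62.8% and their KO means from 46.1 to 60.9%, and 19 of 22 differences were negative, none by 10 points. The 4 most negative were Pcdhb15 (-8.52 points, adjusted p = 0.00994), Pcdhb22 (-6.42, adjusted p = 0.0494), Pcdhb7 (-5.32, adjusted p = 0.0655) and Pcdhb18 (-5.10, adjusted p = 0.103). After centring Pcdhb15 was at -3.63 points (adjusted p = 0.267) and Pcdhb22 at -1.53 (adjusted p = 0.690), and after scaling at -3.79 (adjusted p = 0.227) and -2.23 (adjusted p = 0.537). Pcdhb7 and Pcdhb18 were at -0.43 and -0.21 after centring and at -1.33 and -0.38 after scaling. Pcdhb15 was at 53.3, 56.1 and 53.4% in KO and 64.4, 61.5 and 62.4% in WT. Its difference rested mainly on the last tile counted in the window (37476001 to 37477000), which was the largest loss of the array at -21.8 points (43.0% ± 8.63 and 64.8% ± 3.82), whereas its start tile was at 49.8% ± 3.33 and 47.8% ± 1.31. The window ends at 37476045 and the gene at 37476340, so most of that last tile lies past both. The least negative windows were Pcdhb16 (3.27 points, adjusted p = 0.286) and Pcdhb21 (1.097, adjusted p = 0.769). Pcdhb16 was at -4.31 points over 1000 bp on either side of its start, and Pcdhb21 at -0.38 and -0.50 without KO replicate 1 or 3. After centring and scaling Pcdhb16 was at 8.16 and 8.09 points and Pcdhb21 at 5.99 and 5.27. The largest gain of the array was not called (37493001 to 37494000, 59.2% ± 4.09 and 46.9% ± 6.12, adjusted p = 0.0557).

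The difference of the gamma array did not stop at its last exon. In the 100 kb after it, levels were 57.7, 57.8 and 59.3% in KO and 67.1, 66.4 and 67.9% in WT, a difference of -8.87 points (exact permutation p = 0.10, n = 3 per group). There 31 of 95 tiles were called lower, against 16.2% of all tiles. Centring left -3.98 points and 16 tiles, and scaling -3.81 points and 15 tiles, against 6.64% and 6.58% of all tiles. Most of that stretch is Diaph1 (37843601 to 37935622), which encodes a formin that assembles actin filaments. The end of Diaph1 next to the array stood at 51.4% ± 0.533 in KO and 75.4% ± 1.76 in WT, and its other end at 3.53% ± 1.39 and 22.7% ± 0.560; both were called lower, as were 19.3% of windows at the lower and 19.6% at the upper end of all protein-coding genes (0.0448% of the latter were higher). On the other side the difference was small. The 100 kb before the alpha array differed by -0.62 points, the alpha to beta gap by -0.61 and the beta to gamma gap by -1.27 (exact permutation p of 0.80, 0.50 and 0.30, n = 3 per group), and of their 66, 55 and 91 tiles 0, 0 and 2 were called lower. These 3 turned to 4.28, 4.28 and 3.62 points after centring and to 4.55, 4.09 and 3.78 after scaling.

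Slc25a2 and Taf7, which are not protocadherins, lie between the beta and gamma arrays, and neither was called. Slc25a2, a mitochondrial carrier gene, was at 84.2% ± 2.81 in KO and 86.1% ± 1.29 in WT. Taf7, a subunit of the general transcription factor TFIID, was at 59.4% ± 0.868 and 62.3% ± 2.56 at its end towards the gamma array and at 94.0% ± 0.933 and 95.9% ± 2.52 at the other. The models Gm37013, Gm38666 and Gm38667 start at Pcdha4, Pcdha6 and Pcdha7 and end with the gamma genes, so their windows repeat those of these members.

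Set beside other tandem gene families measured in the same windows, the gamma array had a larger difference than olfactory receptor genes, by more than the spread between samples. The median of 1049 olfactory receptor windows was 62.2% ± 0.592 in KO and 63.3% ± 0.585 in WT, and 1.62% of them were called lower. Gamma differed from them by -7.92 points (difference of the differences of medians, exact permutation p = 0.10, n = 3 per group), alpha by 1.89 (exact permutation p = 0.20) and beta by -1.79 (exact permutation p = 0.30). The 39 windows of Hox genes were at 2.11% ± 0.458 and 7.10% ± 0.830, and 28.2% of them were called lower. Against Hox genes gamma differed by -4.04 points (exact permutation p = 0.10, n = 3 per group), alpha by 5.78 (exact permutation p = 0.10) and beta by 2.10 (exact permutation p = 0.30). From 7.10% in WT the Hox median could fall no further than to 0, so the contrast with gamma does not compare losses evenly. These windows start at the lower coordinate of a gene, which for genes on the other strand is the far end.

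Genes known to act on these arrays were read at their RefSeq start, where 18.5% of protein-coding genes with a known strand were called lower and 0.0434% higher. Of a list of 10, 8 had a known strand and 1 was called. This was Dnmt3b, at 1.66% ± 0.765 in KO and 16.6% ± 3.39 in WT. Ctcf was at 20.3% ± 1.36 and 20.02% ± 0.608, and Smchd1, a chromatin protein that silences clustered genes, at 34.9% ± 5.10 and 41.6% ± 3.56 (adjusted p = 0.0791). Protocadherins outside the arrays were mostly low at their start in both groups. None of the 8 with a known strand was called, with differences from -5.25 to -0.09 points and WT levels from 0.642% in Pcdh17 to 41.1% in Pcdh18. Pcdh7, Pcdh8, Pcdh10, Pcdh15 and Pcdh17 stood at 8.52% or less in WT and so could not lose the 10 points that a call needs. Pcdh1 and Pcdh12, the latter an endothelial protocadherin, lie on chromosome 18 without a strand in the table. One end of Pcdh1 was at 0.740% ± 0.338 and 1.11% ± 0.229 and the other was called lower, at 20.4% ± 4.86 and 34.6% ± 6.16. The ends of Pcdh12 were at 2.02% ± 0.693 and 5.45% ± 1.70, and at 33.2% ± 6.29 and 38.5% ± 1.62, with no call. The first of these ends was likewise too low in WT to lose 10 points.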

How the data were processed

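Per the labels' protocols, 30 ng of DNA from sorted lung endothelial cells gave 3 bisulfite libraries per sample, made by tagmentation. The submitters' processing notes name BWA 0.7.8 and the build mm10. Methylation fractions, 1 for each sample and 1 kb tile, are what the authors deposited, with samples named per the file headers. The sources used here do not state the methylation caller, any smoothing or the choice of tiles. Without read counts in the table, no counting interval was computed and precision rests on the spread over 3 samples per group.

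Fractions were multiplied to percent. The design foresaw a logistic model if read counts were present; they were not, and limma 3.58.1 (R 4.3.3) with a variance trend was fitted to all tiles and to the first 2500 bp, by lower coordinate, of all protein-coding genes of RefSeq GRCm38.p6 on chromosomes 1 to 19. Single values were compared by two-sided exact permutation of samples (Python 3.11.15). The limma fit was checked on simulated windows, and the permutation test only on small made-up sets of values. Alternatives were centring, scaling, a logit scale, no trend, a replicate block, leaving out each sample, a minimum of 20 points and other windows; windows at the RefSeq start were added after the data were seen. The naming rule took the 4 most and 2 least negative windows of each array, all C-type genes, the extreme tiles of each array, the genes between the arrays, Ctcf, Dnmt3b and Smchd1 among regulators, and Pcdh1, Pcdh12 and Pcdh17 among other protocadherins; other genes and tiles named were chosen after their values were seen. The members and lists were chosen with earlier results of these data known.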

Additional observations from a re-analysis of the deposited data

How the results depend on the processing

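Of the recomputed counts 36 moved by over 1.5 times, and of the differences of parts 6 reversed, all on centring or scaling. The other 314 values are counts within 1.5 times and differences that kept their direction, some at a much smaller size. Centring gave 45 gamma, 2 alpha and 1 beta tiles called lower and 7 alpha, 4 beta and 1 gamma tiles called higher, and scaling gave 47, 3 and 1 lower and 6 alpha, 2 beta and 2 gamma tiles higher. Over all tiles 6.64% were then lower and 0.931% higher (centring), or 6.58% and 1.57% (scaling). On either scale 5 gamma windows were called lower, and 2 alpha windows (centring) or 1 (scaling) were called higher, against 8.39% lower and 0.867% higher over all windows (centring) or 9.95% and 0.897% (scaling). At a minimum of 20 points, 35 gamma, 1 alpha and 1 beta tiles and 4 gamma windows were lower and 0 alpha tiles were higher, against 4.50% of all tiles and 3.68% of all windows lower. The logit scale and limma without trend each left 1 alpha tile called higher, and the latter called 1 beta tile higher. Leaving out 1 sample at a time gave 5 to 10 alpha, 1 to 4 beta and 63 to 81 gamma tiles called lower, 0 to 2 alpha and 0 to 1 beta tiles called higher, and the same 10 gamma windows each time. With windows of 1500 bp or an overlap of at least 500 bp, 10 gamma windows were called, 9 of them shared, with Pcdhga2 in place of Pcdhga7. By construction, centring adds the same amount to every difference, which moves the median tile from -4.05 to 0.843 points, and a higher minimum admits fewer tiles. The cause of the other changes was not tested.

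Centring and scaling turned the difference between alpha exons to 3.88 and 3.75, of beta exons to 2.23 and 1.67 and between beta exons to 4.68 and 4.40 points. Among named windows they turned Pcdha7 to 3.18 and 2.54, Pcdha8 to 3.78 and 3.83, Pcdha10 to 1.62 and 0.98, Pcdhac2 to 3.45 and 1.57 and Pcdhga4 to 2.63 and 2.27. Centring turned Pcdhgc3 to 4.10, which is the common shift applied to a window that was unmethylated in both groups. Over 1000 bp on either side of the start Pcdha7 was at 1.301, Pcdhga4 at 0.45 and Pcdhb16 at -4.31; over 1500 bp Pcdhgc3 was at 0.0566. Leaving out 1 sample gave Pcdha8 from -2.36 to 0.38 (the latter without WT replicate 2) and Pcdhb21 from -0.50 (without KO replicate 3; -0.38 without KO replicate 1) to 4.16.

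Same-numbered samples did not deviate together (r of 0.0056, -0.0032 and 0.011 over tiles). The labels do not say what the numbers stand for, and with noisy tiles and 3 samples per group this check cannot exclude a pairing. With the replicate block 77 gamma, 9 alpha and 3 beta tiles were called lower, 1 beta tile was called higher, and the same 10 gamma windows were lower; array means are the same by construction. A difference under 10 points in a single tile was never called, by the chosen minimum. Depth is unknown, so a larger difference in a single tile may have been missed too.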
